A study of Mus musculus with 10 samples.

Results

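The immunity-related GTPases (IRGs) are a family of interferon-inducible proteins, and the RNA of 8 of its mouse members was followed here across every library of the study. The members were Irgm1, Irgm2, Igtp, Iigp1, Tgtp1, Tgtp2, Gm12250 and Ifi47, taken by symbol from a table of 17171 genes, and all 8 passed the filter on low values (at least 1 FPKM in at least 4 libraries, met by 11169 genes). FPKM, the unit of the table, counts fragments scaled by transcript length and by the mapped reads of the library, so levels can be set side by side between genes. RNA came from the PyMt cell line, a single mouse breast cancer line derived from tumors of MMTV-PyMt transgenic animals, in which a mammary promoter drives the polyoma middle T oncogene. The cells were kept in low-adherence wells with insulin and with medium conditioned by CD4+ T cells. In the 6 test libraries the T cells came from Tslp transgenic animals (Tslp-PyMttg, with K14-Tslp, a keratinocyte promoter driving thymic stromal lymphopoietin), and in the 4 control libraries the titles name control CD4+ T cell supernatant, which the protocol ascribes to Tslp-PyMttg TslprKO and PyMttg mice. T cells of both arms were stimulated with anti-CD3/CD28 antibodies plus TSLP, and the mice had a C57BL/6 background. No source used here gives the age of the mice. Each title ends in a tag that places its library in a set of 2, and the 5 sets are Blank, Control, Test1, Test2 and Test3. Blank and Control libraries carry the same control title, the protocol also mentions medium, and no source used here says what Blank stands for, so both sets are reported apart. It is not stated whether libraries of a set are separate cultures. The p-values therefore reflect the variation among these libraries only, and that variation may be technical.

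IRG proteins are large GTPases of the cytosol and of membranes that cells make in quantity after exposure to interferon-gamma (IFN-γ). IFN-γ binds its receptor, which signals through the kinases JAK1 and JAK2. Target genes carry GAS and ISRE promoter elements, and IRF1, itself induced, acts at ISRE elements. In mice, IRG effectors (the GKS class, named after residues of the nucleotide-binding loop) load onto the vacuole of parasites such as Toxoplasma gondii and break it. Regulators of the GMS class stay on the cell's own membranes and keep the effectors inactive there. Irgm1, Irgm2 and Igtp (also Irgm3) are the regulators, and Iigp1 (Irga6), Tgtp1 and Tgtp2 (Irgb6), Gm12250 (Irgb10) and Ifi47 (Irgd) are the effectors.

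Promoter sequence was available for 7 members, all but Iigp1, as the 250 bases before and 50 bases after the RefSeq start site (build GRCm38.p6). The bases just after the start site were found in a matched GENCODE transcript for Igtp, Tgtp1 and Ifi47. For Irgm1, Irgm2 and Tgtp2 they were not found, and Gm12250 could not be checked, so the start sites of these genes are less certain. The windows were searched on both strands for TTCNNNGAA, the core of a GAS element, which reads the same on both strands, and for GAAANNGAA, the core of an ISRE-like element. The first was found in 8.30% and the second in 8.56% of 32851 promoter windows of the same length, and 1.07% held both. Of the 7 IRG windows, 5 held both (Igtp, Irgm2, Tgtp1, Tgtp2 and Gm12250), Irgm1 held only the second, in 2 overlapping copies, and Ifi47 held neither. In Igtp, Irgm2, Tgtp1 and Tgtp2 the 2 motifs start 11 bases apart, and 0.277% of all windows had both starting within 20 bases of each other. These stretches are shown because most members share their motifs. Each is written 5′ to 3′ on the strand of the gene, with the matched motifs in capitals.
Igtp (chr11:58199501-58199540, plus strand): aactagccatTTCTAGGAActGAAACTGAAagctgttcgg
Irgm2 (chr11:58214892-58214931, plus strand): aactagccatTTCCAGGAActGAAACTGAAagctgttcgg
Tgtp1 (chr11:48992305-48992344, minus strand): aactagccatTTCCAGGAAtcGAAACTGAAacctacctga
Tgtp2 (chr11:49064264-49064303, minus strand): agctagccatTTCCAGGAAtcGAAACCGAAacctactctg
Gm12250 (chr11:58183743-58183816, plus strand): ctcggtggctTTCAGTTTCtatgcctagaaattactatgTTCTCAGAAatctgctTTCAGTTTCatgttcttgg
Irgm1 (chr11:48871426-48871460, minus strand): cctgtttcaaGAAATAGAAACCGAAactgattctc
The windows of Igtp and Irgm2 were identical at 39 of 40 positions and those of Tgtp1 and Tgtp2 at 34, while Igtp matched Tgtp1 at 31. In Gm12250 both ISRE-like matches lie on the strand opposite to the gene, at -90 and -45 from the start site, with the GAS match at -61. The matches at -61 and -45 thus also start within 20 bases of each other, though more than 11 bases apart. A match describes letters in a window and is neither a measured binding site nor a cause of the RNA levels, and a window without one says only that these letters are not in it.

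Of the 8 genes, 7 lie on chromosome 11 in 2 groups. Irgm1 (48865245 to 48871420, minus strand), Tgtp1 (48985329 to 48992246, minus), Tgtp2 (49057196 to 49064212, minus) and Ifi47 (49076587 to 49096987, plus) form the first. Gm12250 (58183843 to 58190198), Igtp (58199556 to 58207592) and Irgm2 (58214977 to 58222783), all on the plus strand, form the second. Coordinates are those of whole genes in the RefSeq annotation of GRCm38, the assembly that mm10 names, and reads from their exons make up the FPKM.

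Iigp1 lies apart from the others, on chromosome 18 (60373616 to 60392634, plus strand). Some values rest on reads that could belong to more than 1 gene. Tgtp1 and Tgtp2 are near-identical copies, since 89.4% of the 50-base words of Tgtp1 transcripts and 89.8% of those of Tgtp2 occur in the other gene, so the split of reads between them is uncertain and their sum is also given. Igtp shares 10.1% of its 50-base words with Irgm2, and the GENCODE model of Irgm2 reaches over Igtp. Tgtp1 overlaps Gm12185 on the same strand, Olfr56 overlaps Tgtp1, Tgtp2 and Ifi47 in that annotation, and Gm12188 runs opposite to Ifi47. No source used here says whether counting used strand, and values of overlapping genes are uncertain to that extent. Gm12250 is listed as a processed pseudogene in GENCODE M21 and as protein coding in RefSeq.

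Read totals are not in the table. The spacing of low FPKM values gave an estimated 12.4 to 13.2 M reads (M, mega) in the control libraries and 10.8 to 14.7 M in the test libraries, and at most 16.7 M when transcript lengths were shortened for fragment size. At these depths the lowest member with a transcript length, Tgtp2 in Blank-1, rested on about 96 reads and Irgm1 there on about 1447, while each library listed 14074 to 14964 genes above 0. The epithelial genes Krt18 and Krt8 had mean levels of 1302 and 739 FPKM over the 10 libraries and Cdh1 of 11.4 FPKM, and Vim, a mesenchymal filament gene, of 1930.5 FPKM. Of 17 leukocyte markers 9 are among the table's genes, and apart from Cd3d, a T cell receptor subunit (0.98 to 16.7 FPKM), none of them exceeded 0.9 FPKM in any library. In bulk RNA fewer cells of a type and less RNA per cell cannot be told apart.

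The regulators were present in every library and were lowest in the Blank libraries. Irgm1, needed in mice for resistance to intracellular bacteria, had 48.8 and 49.5 FPKM in the Blank libraries, 499 and 505 in Control, 409 and 429 in Test1, 522 and 522 in Test2, and 398 and 429 in Test3. It was thus the highest IRG in cells of the Blank libraries, and its 8 other libraries all lay above them. Igtp, a regulator found on the endoplasmic reticulum and on lipid droplets, had 8.21 and 11.8 FPKM in Blank, 396 and 368 in Control, 285 and 333 in Test1, 474 and 447 in Test2, and 249 and 319 in Test3. Irgm2, which sits mainly at the Golgi, had 4.01 and 3.39 FPKM in Blank, 104 and 101 in Control, 78.5 and 86.8 in Test1, 86.2 and 99.97 in Test2, and 69.9 and 71.4 in Test3. Both Test3 libraries of Irgm2 lay below all Control, Test1 and Test2 libraries.

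Effector RNA followed the same division. Iigp1, the effector whose GTPase cycle and loading onto vacuoles have been studied in most detail, had 12.7 and 13.9 FPKM in Blank, 489 and 613 in Control, 634 and 549.95 in Test1, 568 and 633 in Test2, and 601 and 612 in Test3. The 8 libraries outside Blank overlapped from set to set. Tgtp1, an effector that reaches the parasite vacuole early, had 7.21 and 8.15 FPKM in Blank, 256 and 302 in Control, 289 and 285 in Test1, 312 and 309 in Test2, and 178 and 222 in Test3. Its copy Tgtp2 had 2.59 and 3.90 FPKM in Blank, 169.7 and 191 in Control, 189 and 179 in Test1, 197 and 211 in Test2, and 129 and 149 in Test3. For both copies the Test3 libraries lay below the 6 libraries of Control, Test1 and Test2. Summed, the copies had 9.8 and 12.1 FPKM in Blank, 307 and 371 in Test3, and 425 to 520.3 in the other 6 libraries. Gm12250, an effector that also acts at the membranes of cytosolic bacteria, had 0.97 and 1.39 FPKM in Blank, 64.0 and 67.3 in Control, 51.1 and 47.0 in Test1, 72.8 and 71.0 in Test2, and 52.5 and 52.0 in Test3. It was the lowest member in every library, and its 2 Test2 libraries were above all others. Ifi47, among the first IRG genes isolated as targets of IFN-γ, had 11.7 and 12.1 FPKM in Blank, 179.7 and 160.25 in Control, 116 and 152 in Test1, 229 and 191 in Test2, and 102 and 126 in Test3. Its Test2 libraries were likewise the highest, as were those of Irgm1, Igtp, Tgtp1 and Tgtp2. How often other tested genes show these orders of Test2 and Test3 libraries was not computed.

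**Figure D1:**
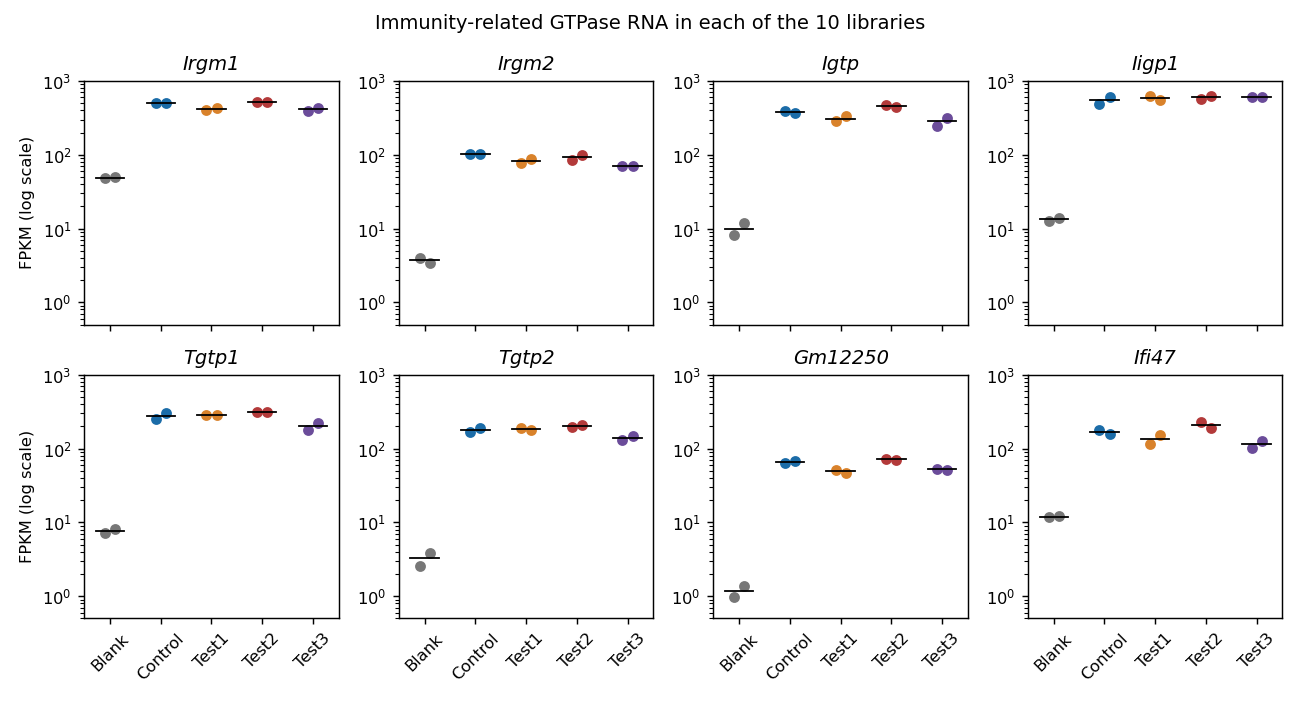
FPKM of each IRG (vertical axis, log scale) in the 10 libraries, 1 point per library, by label set (horizontal axis), with the set mean as a line. In each of the 8 panels the 2 Blank points lie far below the other 8, from 0.97 and 1.39 FPKM for Gm12250 to 48.8 and 49.5 FPKM for Irgm1.

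Whether both sets titled as control supernatant hold the same IRG level was asked first. All 8 IRGs rose in Control over Blank libraries, against 4.55% of the 11169 tested genes that were higher at an adjusted p under 0.05 (limma's fit of the 5 label sets on log2(FPKM + 1), Benjamini-Hochberg adjustment over all tested genes, two-sided). The ratio of mean FPKM was 10.2 for Irgm1 and 14.3 for Ifi47, 27.7 for Irgm2, 36.3 for Tgtp1, 38.2 for Igtp, 41.4 for Iigp1, and 55.6 for Tgtp2 and for Gm12250. On the log2(FPKM + 1) scale, which understates the change of low genes, the differences ran from 3.33 (Irgm1, standard error 0.11, adjusted p = 3.21e-08 from limma) to 5.43 (Tgtp2, standard error 0.16, adjusted p = 1.45e-08). The member median was 4.97 beside -0.03 over all tested genes, and the difference of Tgtp2 equalled the largest of any tested gene. The 95% intervals of Irgm1 (3.08 to 3.58) and Ifi47 (3.36 to 4.09) lay below those of the other 6, of which Irgm2 had the lowest bound (4.19). All 8 libraries outside Blank exceeded both Blank libraries for 8 of 8 IRGs, against 10.8% of tested genes. With Tgtp1 and Tgtp2 summed into 1 gene, an alternative chosen after the data had been seen, the difference of the sum was 5.27 on the log2 scale. The summed leukocyte markers stood at 1.5 and 2.79 FPKM in Blank and at 2.93 and 5.89 FPKM in Control, and the summed epithelial markers at 1332 to 1416 and 2792 to 2822 FPKM. Most of the leukocyte sums was Cd3d, with means of 1.505 FPKM in Blank and 3.54 in Control. Cd3d was not called (log2 difference 0.83, limma adjusted p = 0.403), and no other leukocyte marker exceeded 0.9 FPKM in any library. Krt8 and Krt18 made up most of the epithelial sums, with means of 545 and 781 FPKM in Blank and 979 and 1777 in Control. Cdh1 had 12.1 FPKM in Blank and 11.8 in Control, Krt7 29.1 and 29.9, and Epcam, chosen after its values were seen, 3.9 and 5.2. The part of these markers in the IRG difference between Control and Blank was not tested.

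The comparison named by the titles sets all 6 test against all 4 control libraries. Every IRG had a higher mean in test, and none of the 8 was called by limma, against 2.95% of tested genes called higher. All 8 had an unadjusted p under 0.05, and adjusted p-values ran from 0.109 (Iigp1) to 0.183 (Irgm2). The share of all tested genes with an unadjusted p under 0.05 was not computed, here or for later counts at that threshold. The count is therefore a description of these genes only. The log2 differences were 1.503 (Irgm1) to 2.76 (Iigp1), with standard errors of 0.63 to 1.03 and a median of 2.34 beside -0.03 over all tested genes. The control group joined Blank, with the lowest IRG levels of the study, to Control. Igtp had 8.21 FPKM in the lowest control library, a median of 189.7 and a highest value of 396 (n = 4), and 249, 326 and 474 in the test libraries (n = 6). No IRG had every test library above every control library (0 of 8, against 3.21% of tested genes). Left-out libraries moved this result. Without Control-1 all 8 were called (adjusted p = 0.0337 to 0.0483 from limma), and without Control-2 Iigp1, Tgtp1 and Tgtp2 were called. Without Blank-1 or Blank-2 the median log2 difference was 1.44 or 1.55, and 0 of 8 had an unadjusted p under 0.05 (lowest adjusted p = 0.335 from limma).

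With the 3 test sets averaged, all 8 IRGs were called against Blank and none against Control. The mean of the 3 test sets was higher than Blank for 8 of 8 IRGs (10.3% of tested genes were higher), by 3.17 (Irgm1) to 5.39 (Iigp1) on the log2 scale (adjusted p at most 3.12e-08 from limma). Against Control 0 of 8 were called by limma, while 2.00% of tested genes were called higher and 1.61% lower. Of the 8, 1, Irgm2, had an unadjusted p under 0.05, and the share of all tested genes under that threshold was not computed. Irgm2 had 82.1 ± 11.3 FPKM in test (SD, n = 6) and 103 ± 1.499 in Control (SD, n = 2), a log2 difference of -0.33 (95% interval -0.55 to -0.10, adjusted p = 0.126). Iigp1 had 599.6 ± 34.4 and 551 ± 87.8 FPKM, a difference of 0.13 (interval -0.14 to 0.39). The remaining differences were -0.05 (Tgtp2) to -0.21 (Ifi47), and the widest of their intervals was that of Igtp, from -0.48 to 0.17. The ratio of mean FPKM in test to Control was 0.801 for Irgm2 and 1.09 for Iigp1, with the other 6 in between. The comparisons with Blank and with Control share the test libraries and are not independent.

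**Figure D2:**
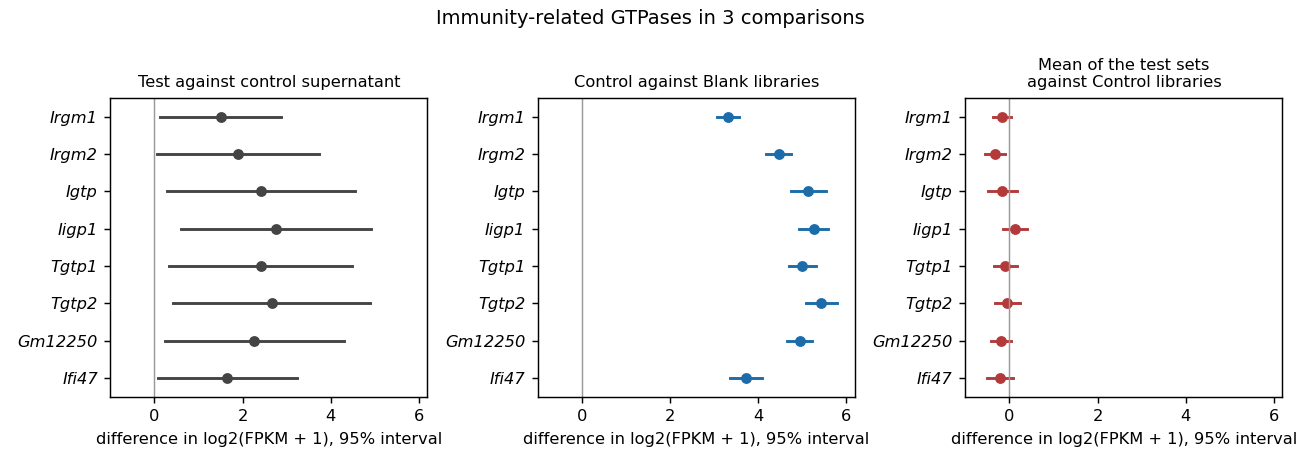
Difference in log2(FPKM + 1) of each IRG (horizontal axis) in 3 comparisons, with limma's 95% intervals as lines. All 8 intervals lie above 3 for Control against Blank libraries, and within -0.55 and 0.39 for the 3 test sets, averaged, against Control. Intervals of test against control supernatant are wide, since that control group joins Blank and Control.

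The make-up of the family also differed between Blank and the rest. The 8 genes summed to 96.1 and 104.1 FPKM in Blank (0.0232% and 0.0250% of all FPKM of the library) and to 1779 to 2484 FPKM elsewhere (0.424% to 0.570%). Irgm1 held 50.7% and 47.5% of the sum in Blank and 19.9% to 23.1% elsewhere. Iigp1 held 13.2% and 13.4% in Blank and 22.7% to 33.8% elsewhere, where it was the most abundant IRG in all libraries but Control-1, in which Irgm1 was higher (499 against 489 FPKM). Igtp held 8.54% and 11.3% in Blank and 13.9% to 19.3% elsewhere. Tgtp1 exceeded Tgtp2 by 2.78 and 2.09 times in Blank and by 1.38 to 1.59 times elsewhere, with the uncertainty of near-identical copies. These shares are a description, with no test.

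**Figure D3:**
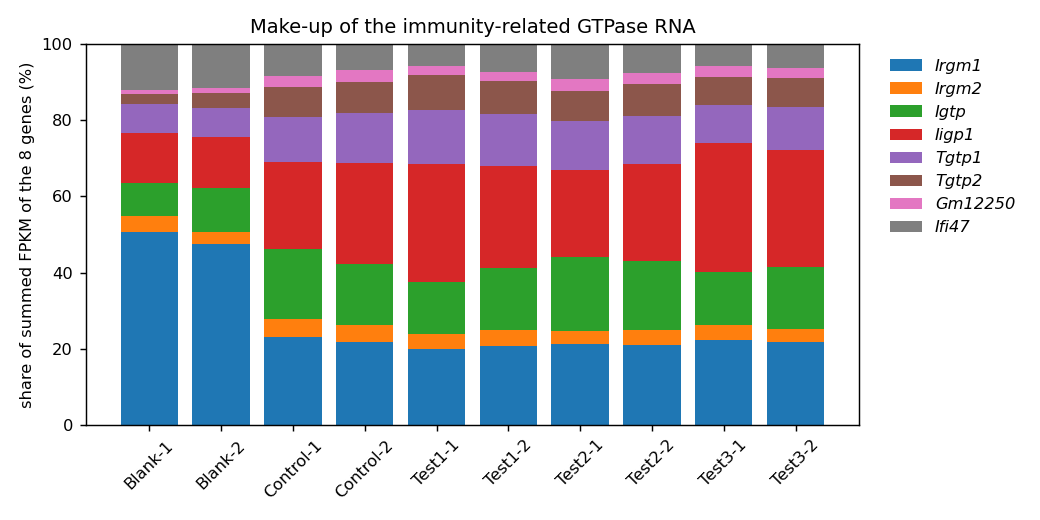
Share of each IRG in the summed FPKM of the 8 genes (vertical axis, %), 1 bar per library. Irgm1 makes up 50.7% and 47.5% in the 2 Blank libraries and 19.9% to 23.1% in the other 8.

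The order of the set means was much the same from gene to gene. Blank was lowest for all 8, Test2 highest for 6, and Test3 the lowest of the other 4 sets for 6. The share of all tested genes with each of these orders was not computed, so the counts are a description of these genes only. Control was highest for Irgm2 and Test3 for Iigp1. Among Control, Test1, Test2 and Test3, no 2 neighbours in the order of any IRG passed the adjusted threshold in limma's pairwise contrasts. For 4 pairs of neighbours the 95% interval nevertheless left out 0, namely Test3 below Control for Tgtp1 (-0.79 to -0.17), Tgtp2 (-0.72 to -0.02) and Gm12250 (-0.60 to -0.04), and Test1 below Control for Irgm1 (-0.51 to -0.01), and in each of them the libraries of the 2 sets did not overlap. These intervals are not adjusted for the number of genes, and the order came from the same values. The share of all tested genes with such intervals or without overlap was not computed, so these pairs are a description only. Sets farther apart passed in 4 cases. The pairs of sets in these cases were picked from all pairwise contrasts after the calls had been seen. Each joins the highest and the lowest of these 4 sets for its gene. The counts set beside shares of tested genes are therefore a description only. Test3 was lower than Test2 for Ifi47, by -0.88 (standard error 0.16, adjusted p = 0.014), for Igtp, by -0.71 (standard error 0.18, adjusted p = 0.0456), and for Tgtp1, by -0.64 (standard error 0.14, adjusted p = 0.0259). These are 3 of 8 IRGs, against 3.55% of tested genes that were lower in Test3 than in Test2. Irgm2 was lower in Test3 than in Control by -0.53 (standard error 0.12, adjusted p = 0.0278), 1 of 8 against 4.83% of tested genes. These calls changed when single libraries were left out. Without Test2-1 or without Test3-1 no IRG was called between Test3 and Test2 (adjusted p of the 3 up to 0.300 from limma). Igtp also lost its call without Blank-1, Control-1, Control-2 or Test2-2, and Tgtp1 without Blank-1, Blank-2 or Test2-2. Irgm2 was not called in Test3 against Control when any Blank, Control or Test3 library was left out (adjusted p = 0.0518 to 0.133 from limma). The ratio of Test3 to Test2 mean FPKM was 0.543 for Ifi47, 0.617 for Igtp, 0.643 for Tgtp1, 0.681 for Tgtp2, 0.727 for Gm12250, 0.759 for Irgm2 and 0.792 for Irgm1, and 1.01 for Iigp1. Between Test1 and Test2 no IRG was called (0 of 8 by limma, beside 0.116% of tested genes called higher and 0.0448% lower). Of the 8, 4 had an unadjusted p under 0.05, and the share of all tested genes under that unadjusted threshold was not computed. The log2 differences of Test1 minus Test2 ran from -0.65 (Ifi47) to -0.02 (Iigp1).

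Set against the mean of Test1 and Test2, Test3 was lower for Tgtp1 and Ifi47, 2 of 8 IRGs beside 3.13% of tested genes. Tgtp1 had 199.9 ± 31.1 FPKM in Test3, 287 ± 3.02 in Test1 and 311 ± 1.94 in Test2 (SD, n = 2 each), -0.58 on the log2 scale (standard error 0.12, limma adjusted p = 0.0216). Ifi47 had 114 ± 16.8, 134 ± 25.5 and 209.9 ± 26.8 FPKM, a difference of -0.55 (standard error 0.14, adjusted p = 0.0488). For Ifi47 the Test3 libraries, at 102 and 126 FPKM, overlapped those of Test1 (116 and 152) and lay below those of Test2 (229 and 191). Tgtp2 was at -0.48 (adjusted p = 0.0667), Igtp at -0.42 (0.145) and Irgm2 at -0.31 (0.129), and Iigp1 at 0.03 (95% interval -0.25 to 0.31), and these did not pass. Without Test2-1 or without Test3-1 neither Tgtp1 nor Ifi47 was called (highest adjusted p = 0.39 from limma, for Ifi47). Ifi47 was also no longer called when Blank-1, Blank-2, Control-1, Control-2, Test1-2, Test2-2 or Test3-2 was left out. Summed, Tgtp1 and Tgtp2 differed by -0.54 (adjusted p = 0.0333). Guanylate-binding proteins, the other large family of IFN-γ-induced GTPases that act at vacuoles, had 4 of 9 tested members higher in Test3 (3.35% of tested genes were) and none called lower. The 4 were Gbp4 (0.60), Gbp5 (1.90), Gbp6 (0.66) and Gbp8 (0.63). Gbp10 was at -0.43 (95% interval -0.75 to -0.11, limma adjusted p = 0.114), Gbp7 at -0.15 and Gbp2 at -0.03, and these did not pass. The median of the 9 was 0.52 beside -0.36 for the 8 IRGs. Gbp5 and Gbp8 were chosen after their values were seen, and the difference between the families was not itself tested. Summed leukocyte markers stood at 5.79 and 18.9 FPKM in Test3 and at 2.62 to 5.85 in Test1 and Test2, so that Test3-1, with Cd3d at 16.7 FPKM, lay above the rest and Test3-2 did not. Summed epithelial markers stood at 1146 to 1466 FPKM in Test3 and at 2249 to 2920 in Test1 and Test2. Most of these sums was Krt8 and Krt18. Krt8 had means of 418 FPKM in Test3, 835 in Test1 and 920 in Test2, and Krt18 of 848, 1403 and 1699. Cdh1 had 10.85, 13.1 and 9.12 FPKM in the same order. The part of the marker genes in the differences of Test3 was not tested.

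**Figure D4:**
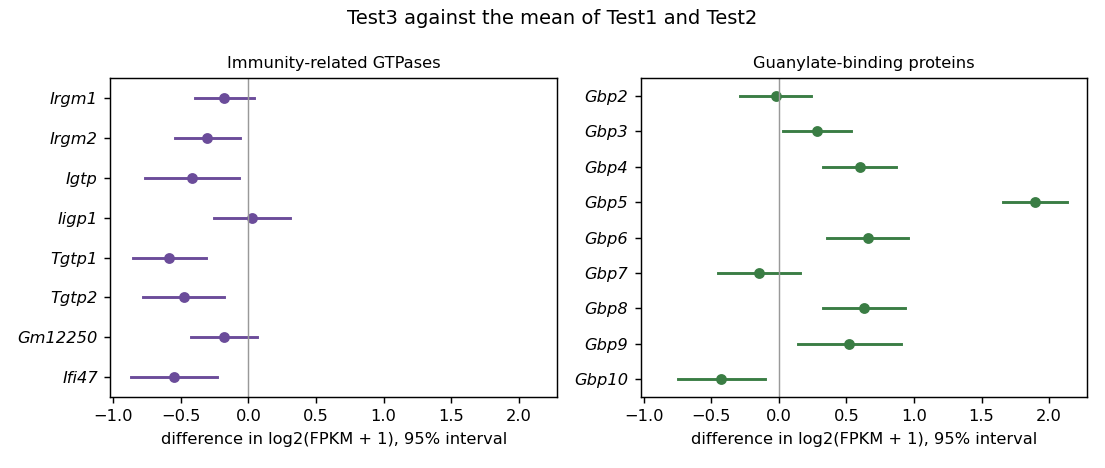
Difference in log2(FPKM + 1) between Test3 and the mean of Test1 and Test2 (horizontal axis, limma's 95% intervals as lines) for the 8 IRGs and the 9 tested guanylate-binding proteins. IRGs run from -0.58 (Tgtp1) to 0.03 (Iigp1), and Gbp5 is farthest to the right at 1.90.

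Genes of the pathway that controls IRGs were read in the same libraries. Of the 14 tested genes for the IFN-γ receptor, its kinases, transcription factors and feedback inhibitors, 10 were higher in Control than in Blank and none was lower. Among all tested genes 4.55% were higher and 1.39% lower. Ifngr1, the ligand-binding receptor chain, had means of 17.3 FPKM in Blank and 16.6 in Control (log2 difference -0.04, limma adjusted p = 0.936), and Ifngr2, the second chain, rose from 31.6 to 56.6 (0.82, adjusted p = 0.00144). Jak2, the kinase bound to Ifngr2, had 29.7 and 35.1 FPKM and did not pass (0.22, adjusted p = 0.55). Irf1 rose from 22.4 to 229 FPKM (3.30, limma adjusted p = 2.24e-08) and Socs3, a feedback inhibitor of cytokine receptors, from 5.94 to 26.9 (1.99). Between the mean of the test sets and Control, 3 of the 14 were higher and 1 lower, beside 2.00% and 1.61% of all tested genes. Socs3 (1.59), Irf8 (0.59) and Ifngr2 (0.40) rose, and Ciita (-1.12), the activator of MHC class II genes, fell, while Irf1 was at 0.24 and did not pass. Ciita was chosen after its values were seen. In Test3 against the mean of Test1 and Test2, Jak2 (0.74) and Socs3 (0.68) rose and none of the 14 fell, beside 3.35% and 3.13% of all tested genes.

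Other GTPases moved with the IRGs in the control libraries. All 9 tested guanylate-binding proteins rose in Control over Blank, with a median log2 difference of 4.59, while 4.55% of all tested genes rose and 1.39% fell. Gbp2, the most abundant, went from a mean of 49.7 FPKM to 1583, Gbp6 from 8.07 to 245 and Gbp4 from 3.77 to 146. Of 9 tested genes for other IRGs and very large inducible GTPases, 5 rose in the same comparison and none fell. These were Gvin1 (16.0 to 128 FPKM), Gm4070 (8.48 to 108), Gm4841 (5.45 to 66.9), Gm4951 (0.97 to 26.1) and F830016B08Rik (1.68 to 16.7). The last was chosen after its values were seen and was the only gene of that list that rose in Test3 against Test1 and Test2 (0.80, adjusted p = 0.0251 from limma). Of all tested genes 3.35% rose in that comparison. The type I interferon receptor list had 3 tested genes. Ifnar2 rose in Control over Blank (0.79), while Ifnar1 was at 0.04 (adjusted p = 0.877) and did not pass.

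IRGs reach the vacuole with the help of the machinery that attaches ubiquitin-like proteins of autophagy to membranes. Of its 12 genes 0 were called by limma between Control and Blank and 1 had an unadjusted p under 0.05, and the median log2 difference was 0.04. Gabarap, the most abundant, had means of 174 FPKM in Blank and 183 in Control, and Map1lc3b of 61.7 and 64.9. Of 9 ubiquitin and vacuole factors 1 rose, Trim21, a cytosolic ubiquitin ligase chosen after its values were seen (2.37, adjusted p = 1.64e-06 from limma), and none fell. Across all tested genes 4.55% were higher in Control than in Blank and 1.39% lower. Sqstm1, the autophagy receptor p62, had 226 and 206 FPKM. In Test3 against Test1 and Test2 it rose by 0.51 and Optn, also an autophagy receptor and also chosen after its values were seen, by 0.75, with none of the 9 lower. Of all tested genes 3.35% were higher and 3.13% lower there.

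The genes whose pattern was most like that of the IRGs were found by the correlation of log2(FPKM + 1) with the median over the 8 members across the 10 libraries. They were Gm12185 (r = 0.997), Gbp10 (0.997), Zbp1 (0.997), a sensor of Z-form nucleic acids, Apol10b (0.996), Gm4951 (0.996) and Gbp7 (0.993), and 19 genes in all had r above 0.99. Gm12185 overlaps Tgtp1, so its reads and those of Tgtp1 may be shared. Zbp1 had means of 4.31 FPKM in Blank, 73.2 in Control and 77.6 in test, and Gbp7 of 4.75, 138 and 136. The 10 points fall into 2 Blank libraries far from the other 8, so these values mostly describe that gap, and they carry no test.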

How the data were processed

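Per the labels and the study's methods, PyMt cell RNA was read on an Illumina HiSeq 2000 at BGI and aligned with Bowtie to mm10. The authors deposited 1 table of FPKM with 2 decimals, 1 column per library. The sources used here do not name the program behind the FPKM, the annotation release or any read filter. The tests that the study names (Poisson, Noiseq or EBSeq) need counts, so limma 3.58.1 in R 4.3.3 was used on log2(FPKM + 1), with eBayes and a trend. Genes that reached 1 FPKM in 4 or more of 10 libraries were kept (11169 of 17171), and p-values were adjusted over all of them by Benjamini-Hochberg, with a threshold of 0.05. A fit of 2 groups compared test with control supernatant (8 residual degrees of freedom) and a fit of 5 label sets gave the other comparisons (5 residual degrees of freedom). Both were tested on simulated data.

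The members, gene lists and rules were chosen with earlier results of these data known. The text names all 8 members, the 4 genes of each other list with the highest mean FPKM at most, the genes Ifngr1, Ifngr2, Irf1 and Jak2, and the 6 genes most like the members' median. A further list gene is not reported here, and the counts do not hold it. Genes outside the rule are marked as chosen after their values were seen. Coordinates and promoters are from RefSeq on GRCm38.p6, and transcripts from GENCODE M21. Python 3.11.15 with pandas 2.3.3, numpy 2.4.6 and matplotlib 3.10.9 were used for tables and plots. No column was left out. Depth was estimated from the spacing of low values in 5571 genes, and no interval or detection limit that needs read counts was computed. At most 42 values over 1 FPKM were equal in any pair of libraries. Other settings were tried for the pseudocount, filter and scaling, the trend, the replicate block, the control libraries, the unit of replication, each library or test set left out, and Tgtp1 and Tgtp2 summed.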

Additional observations from a re-analysis of the deposited data

Results flagged for a closer look

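Tgtp1 and Ifi47 differed between sets of libraries that share the title of test supernatant. Tgtp1 had less RNA in Test3 than in Test1 and Test2 averaged (log2 difference -0.58, limma adjusted p = 0.0216), and both Test3 libraries were below all 4 libraries of Test1 and Test2. For Ifi47 the log2 difference was -0.55 (limma adjusted p = 0.0488), with 1 of the 2 Test3 libraries below all 4. Over the 19 alternatives the adjusted p of Tgtp1 ran from 0.0197 to 0.243 and that of Ifi47 from 0.0258 to 0.39.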

How the results depend on the processing

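All 8 IRGs rose in Control over Blank libraries and in the test sets over Blank under every alternative (7 of 7 with Tgtp1 and Tgtp2 summed), and 0 were called for the test sets against Control or for Test1 against Test2. Test against control supernatant gave 0 calls with all libraries and 0 to 8 with 1 library left out, namely 8 without Control-1, 3 without Control-2 and 0 otherwise. With only the Control libraries as control, the members' median log2 difference was -0.16, beside 2.34 with both control sets. Test3 against the mean of Test1 and Test2 gave 2 calls and 0 to 2 with 1 library left out, and 1 call with a pseudocount of 0.1 or 0.5, without a filter, with 1 FPKM in 2 libraries, without the trend and with the replicate block, each time without Ifi47. Numbers in the titles were not treated as pairs, since the correlations of replicate differences between sets ran from -0.52 to 0.26 and 1 of 10 was above 0.1. With the replicate block the calls in Test3 were 2 against Test2 (3 without it, Igtp lost) and 0 against Control (1 without it). For test against control supernatant 6 of 8 IRGs then had an unadjusted p under 0.05, and all genes called there became 222 higher and 332 lower. For Control against Blank they became 426 and 92 (508 and 155 without the block). The block changed no other count of called IRGs. Test3 against Test2 gave 0 to 3 calls and Test3 against Control 0 to 2 with 1 library left out, and the latter gave 3 with libraries rescaled to the same FPKM sum. No result changed to a called difference in the opposite direction. Rescaling each library to the same FPKM sum shifted the median gene to -0.10 for test against control supernatant and to -0.14 for the test sets against Blank. All genes called in the former became 259 higher and 757 lower (330 and 549 without rescaling), and in the latter 938 and 1891 (1154 and 1524 without rescaling). Median-of-ratios scaling moved these counts the other way, to 362 higher and 360 lower and to 1382 and 1136. Where a left-out library leaves 1 in a set, that library is assumed to vary like the other sets. Levels near 1 FPKM, such as Gm12250 in Blank, rest on few reads.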
